A study of Homo sapiens with 3 samples.

Results

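miR-941 is a microRNA (miRNA) that arose in the human lineage from a tandem repeat in an intron of DNAJC5, the gene of cysteine string protein, a chaperone of synaptic vesicles. It was described here by the rows whose names start with hsa-mir-941- in the deposited table of hairpins (primary transcripts) and by the rows named hsa-miR-941 in the table of mature miRNAs. These were 4 of 661 hairpin rows, hsa-mir-941-1 to hsa-mir-941-4, and 4 of 851 mature rows. Small RNA was sequenced from MV4-11, a human acute myeloid leukemia line that is homozygous for FLT3-ITD, a tandem duplication in the FLT3 receptor, and carries the MLL-AF4 fusion. The cells had received an EV lentiviral CRISPR-Cas9 construct, the study's control, and were grown for 2 weeks before RNA was taken, and their genotype is labelled WT. All 3 libraries, numbered 1 to 3 in the labels, belong to this 1 group and this 1 cell line, and nothing in the sources says whether they came from separate cultures, so the spread between them may be technical. Counts assigned to mature rows ranged from 10991953 to 12694823 per library.

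A miRNA hairpin is cut from a longer transcript by Drosha and then by Dicer, and a mature strand is loaded into an Argonaute protein. Bases 2 to 8 of that strand, the seed, pair with target mRNAs. A miRNA in an intron is usually made from the transcript of its host gene. The number of miR-941 copies is known to vary between people, and the miRNA has been linked to hedgehog and insulin signalling. No other species was sequenced, so the human-specific origin is background and was not examined.

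The mature sequence is shown because every copy carries it unchanged, and the hairpins of MIR941-1 and MIR941-3 because they show where copies can be told apart. Capitals mark the seed in the first line and the mature strand in the other lines, each written 5′ to 3′ from RefSeq (GRCh38.p14).
hsa-miR-941: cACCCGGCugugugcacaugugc
MIR941-1: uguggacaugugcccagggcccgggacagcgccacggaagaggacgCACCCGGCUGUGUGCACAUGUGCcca
MIR941-3: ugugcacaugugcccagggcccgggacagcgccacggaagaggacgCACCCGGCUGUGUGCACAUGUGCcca
The mature strand is 23 bases long and takes up positions 47 to 69 of the 72-base hairpin, counted from 1 at its 5′ end. The hairpins of MIR941-4 and MIR941-5 were identical to that of MIR941-3, while MIR941-1 differed from them by the single substitution C5G, given as the base of MIR941-3, the position and the base of MIR941-1. The mature entry of MIR941-2 had the same sequence as those of the other 4 genes. A read of the mature strand alone therefore carries no base that tells the copies apart. The minimum free energy that RNAfold predicted was -36.80 kcal/mol for MIR941-1 and -40.30 kcal/mol for MIR941-3. Of the other mature names in the RefSeq table, which held 2370 names in all and 679 of the 783 names listed in these data, 0 shared bases 2 to 8 with miR-941 and 0 shared bases 2 to 7.

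The 5 annotated copies lie on the plus strand of chromosome 20 in intron 1 of DNAJC5, which spans positions 63895324 to 63928334 in GRCh38, and none overlaps an exon of that gene. MIR941-1 lies at chr20:63919449-63919520, MIR941-2 at chr20:63919505-63919576, MIR941-3 at chr20:63919561-63919632, MIR941-4 at chr20:63919756-63919827 and MIR941-5 at chr20:63919868-63919939. The first 3 starts are 56 bases apart, which is shorter than the hairpin, so MIR941-2 shares its first 16 bases with the end of MIR941-1, and MIR941-3 with the end of MIR941-2. The last 13 bases of the mature strand of MIR941-1 thus also lie within the hairpin of MIR941-2, and those of MIR941-2 within MIR941-3. MIR941-4 starts 195 bases after MIR941-3 and MIR941-5 starts 112 bases after MIR941-4, with no overlap between annotated hairpins. The submitters' processing notes name hg19 and mm10, so these positions are those of the annotation and not of the alignment, and the layout in hg19 was not examined here. MIR941-5 had no row, and its level was not analysed here.

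**Figure D1:**
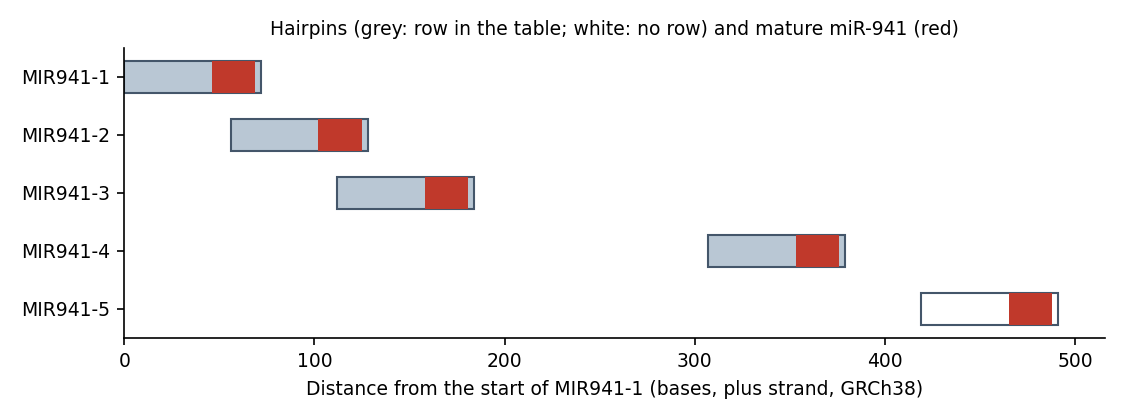
Annotated miR-941 hairpins by distance in bases from the start of MIR941-1 (GRCh38, plus strand), with the mature strand in red, hairpins with a row in the table in grey and MIR941-5, which had none, in white. The hairpins of MIR941-1, MIR941-2 and MIR941-3 form a chain in which each neighbouring pair overlaps by 16 bases, and the mature strands of MIR941-1 and MIR941-2 reach 13 bases into the next hairpin.

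miR-941 ranked high among the listed mature names but held a small part of the reads. Its share of the library total was 0.050%, 0.061% and 0.073% in replicates 1, 2 and 3. Summed over its 4 mature rows it had 6356, 6655 and 8497 counts in replicates 1, 2 and 3, or 22753, 27514 and 33054 FPKM (fragments per kilobase of feature and 1000000 reads, as deposited). The mean was 27774 ± 5155 FPKM (SD, n = 3), which ranked 97 of 783 mature names. In single libraries it ranked 91, 98 and 93. Scaled to 1000000 reads of the library total behind the FPKM, replicate 1 had 501 (488 to 513 by Wilson's method at 95%). Replicate 2 had 605 (591 to 620), and replicate 3 had 727 (712 to 743). None of these intervals, which cover counting error only, overlapped on this scale. With counts scaled by the median of ratios instead, the libraries had 7389, 6437 and 7266, so that the order of replicates 1 and 3 turned and they differed by little. The length behind the deposited FPKM was 22 bases for the mature strand and 71 for the hairpin, each 1 base shorter than in RefSeq. With the RefSeq length the mature FPKM would be 4.35% lower.

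The neighbours of miR-941 in level were not resolved from it by the spread of each name between libraries. Just above it were miR-425-3p with 29940 ± 9276 FPKM, let-7d-3p, the lesser-used strand of a let-7 hairpin, with 29117 ± 4543 FPKM, and miR-146a-5p, which NF-kB induces, with 27965 ± 9332 FPKM (SD, n = 3). Just below were miR-629-5p with 25761 ± 2178 FPKM, miR-199b-3p with 24880 ± 9599 FPKM and miR-455-3p with 23994 ± 7935 FPKM (SD, n = 3). In all, the means of 24 names, 16 above and 8 below, lay within the larger SD of the pair, and they fell between ranks 59 and 106. This rule does not use that both names were read in the same libraries. let-7d-3p was above miR-941 in each library, with 25037, 28300 and 34012 FPKM in replicates 1, 2 and 3. Its counts, 6676, 6534 and 8346, were below those of miR-941 in replicates 2 and 3. Each of the other neighbours shown was above miR-941 in some libraries and below it in others.

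**Figure D2:**
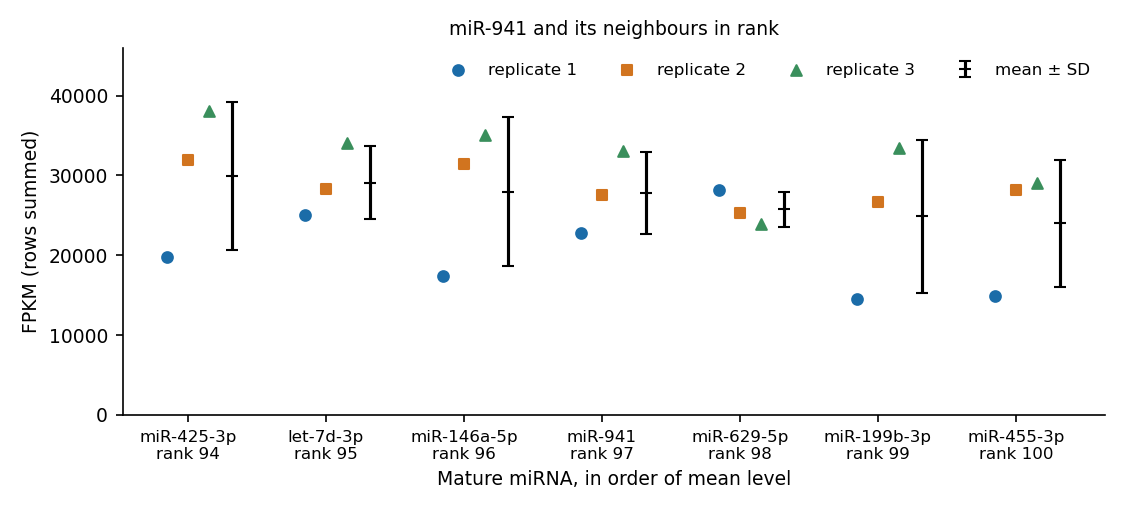
FPKM, summed over the rows of a name, of miR-941 and the 3 mature miRNAs on either side in mean level; points are the 3 libraries and bars the mean ± SD. The means run from 23994 for miR-455-3p to 29940 for miR-425-3p, and the bar of miR-941 overlaps that of each neighbour.

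The reads of the mature strand were divided nearly evenly among the 4 rows. The first listed row had 1510, 1714 and 2179 counts in replicates 1, 2 and 3, the second had 1624, 1667 and 2121, the third had 1571, 1626 and 2138, and the fourth had 1651, 1648 and 2059. Replicate 3 was the highest library in every row, and the order of the rows differed between libraries. The mean share of the summed counts was 25.1% ± 1.12 for the first row, 25.2% ± 0.318 for the second, 24.8% ± 0.367 for the third and 25.0% ± 0.894 for the fourth (SD, n = 3). Of the 12 shares, 11 had a Wilson 95% interval that held the even share of 25%. The exception was the first row in replicate 1, with 23.8% (22.7 to 24.8). No row was further than 4.97% from the mean of the 4. The chi-square statistic against an even split, per degree of freedom and averaged over libraries, was 1.48. Its median was 1.497 over the 24 names that had several rows and a mean of at least 1000 counts, miR-941 among them, and in 21 of these 24 every row was within 10% of the even share in all 3 libraries. Reads of the same sequence cannot be told apart by copy, so an even split gives no level of a single copy. How these reads were placed was not tested.

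The hairpin rows were not even. hsa-mir-941-1 had 1614, 1772 and 2244 counts in replicates 1, 2 and 3, a mean level of 2249 ± 456 FPKM (SD, n = 3). The counts of hsa-mir-941-2 were 3134, 3381 and 4300, with 4319 ± 850 FPKM (SD, n = 3). hsa-mir-941-3 had 3195, 3293 and 4259 counts and 4288 ± 795 FPKM (SD, n = 3). For hsa-mir-941-4 there were 3174, 3331 and 4162 counts and 4257 ± 745 FPKM (SD, n = 3). In each library the first copy was the lowest and the other 3 lay close together. The first copy held 14.9% ± 0.291 of the summed hairpin counts, the second 28.5% ± 0.306, the third 28.4% ± 0.394 and the fourth 28.2% ± 0.374 (SD, n = 3). None of these 12 shares had an interval that held 25%. In replicate 1, for example, the first copy had 14.5% (13.9 to 15.2), and in replicate 2 it had 15.0% (14.4 to 15.7). These intervals take every count as a separate read. Reads of a mature strand were counted in more than 1 hairpin row, as given below, so missing 25% is no test of an uneven use of the copies.

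**Figure D3:**
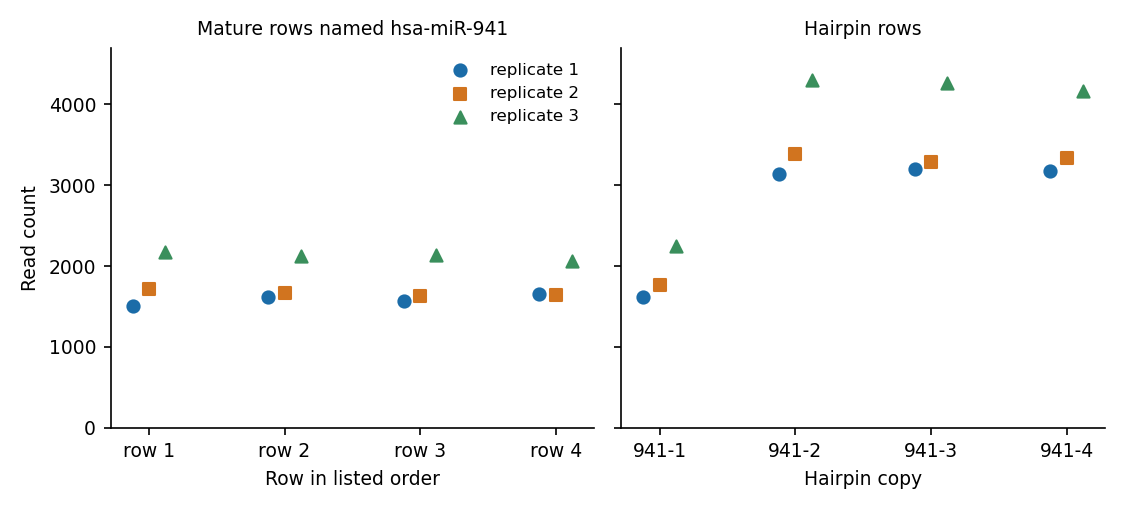
Read counts of the 4 mature rows named hsa-miR-941 (left, in listed order) and of the 4 hairpin rows (right) in the 3 libraries, one symbol per library. Mature rows lie between 1510 and 2179 counts, hsa-mir-941-1 between 1614 and 2244, and hsa-mir-941-2 to hsa-mir-941-4 between 3134 and 4300.

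The counts of hsa-mir-941-2 and hsa-mir-941-3 were sums of mature rows. The count of hsa-mir-941-2 equalled the sum of the first and the second mature rows in each library, 1510 + 1624 = 3134 in replicate 1, 1714 + 1667 = 3381 in replicate 2 and 2179 + 2121 = 4300 in replicate 3. The count of hsa-mir-941-3 equalled the sum of the second and the third rows, 3195, 3293 and 4259, so that all 6 sums were exact to the read. These are the pairs of mature strands that the annotation places within the hairpins of MIR941-2 and MIR941-3 at least in part. Reads of a mature strand were thus counted in more than 1 hairpin row. Over the 4 copies, hairpin counts were 1.75, 1.77 and 1.76 times the mature counts in replicates 1, 2 and 3, and the ratio would be 1.75 if the first hairpin held 1 row and the other 3 held 2 rows each. The median of this ratio was 1.00 over 241 names with at least 100 mature counts in every library. At a mean ratio of 1.76 miR-941 ranked 3 among them, after hsa-mir-6087 at 5.53 and hsa-mir-33a at 3.18, which are named because of these values. It was the only 1 of 33 names with several hairpins whose ratio reached 1.5.

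The first and the fourth copies did not give exact sums. hsa-mir-941-1 exceeded the first mature row by 104, 58 and 65 reads, which was 6.44%, 3.27% and 2.90% of its count. hsa-mir-941-4 exceeded the fourth mature row by 1523, 1683 and 2103 reads. This excess was 95.8%, 101% and 99.0% of a mean mature row, close to the amount that hsa-mir-941-2 and hsa-mir-941-3 took from the row before them. It was not the count of the third row, since hsa-mir-941-4 differed from the sum of the third and the fourth rows by -48, 57 and -35 reads. No annotated mature strand of GRCh38 other than its own overlaps MIR941-4, and where these reads were aligned was not tested. Whether the excess was made of mature miR-941 reads was not tested either. If all of it were, the summed counts of miR-941 would be 7879, 8338 and 10600. These are 1.24, 1.25 and 1.25 times the sum of the listed rows.

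The split between the first 2 listed copies was fitted for every hairpin with numbered copies, with edgeR's quasi-likelihood test on the counts and the library as a block. Of 47 pairs, 31.9% were called at a Benjamini-Hochberg adjusted p under 0.05, which was 15 pairs with edgeR against 8 with limma and 6 with DESeq2. The log2 ratio of hsa-mir-941-1 to hsa-mir-941-2 was -0.96, -0.93 and -0.94 in replicates 1, 2 and 3, with a fitted value of -0.94. Since the count of the second hairpin contains the first mature row, which made up nearly all of the first hairpin, this ratio sets a part against a sum that holds it. With the first 2 mature rows nearly equal, such a ratio lies near -1 by arithmetic. It is given as a description, with no test. The ratios of the first copy to the third and to the fourth were -0.93 and -0.92, and those among copies 2, 3 and 4 lay between 0.0082 and 0.017 on the log2 scale. The third hairpin is a sum of 2 mature rows, of which it shares the second with hsa-mir-941-2. The source of the excess reads of hsa-mir-941-4 was not tested. These ratios are descriptions too.

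The other hairpins give the range of such ratios. The median absolute log2 ratio was 0.081 over 30 pairs, miR-941 among them, that had at least 100 counts of each copy in every library. The most uneven of these after miR-941 were miR-194 at -0.92 (edgeR adjusted p = 0.00133) and miR-128 at 0.54 (edgeR adjusted p = 2.36e-05). The most even were miR-9 at 0.00093, miR-1254 at -0.0077 and miR-550a at 0.0090 (edgeR adjusted p = 0.981 for each). In each of these pairs the copies share a mature name, so their rows may hold an assigned share of common reads. The ratios and their p-values describe the rows as counted and give no level of a single copy. Of all 47 pairs, only miR-7641 had a larger absolute ratio than miR-941, at -3.52, with 9 to 22 counts of its first copy, and it is named for that value. The place of miR-941 in this order is no sign of an uneven use of its copies, since its second hairpin holds the first mature row. miR-941 is also counted among the pairs called above, with the same limit.

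The uneven split was not found in the mature rows. In the same test on the first 2 rows of each repeated mature name, added after the data were seen, 23.6% of 55 names were called, and miR-941 had a log2 ratio of -0.0033 (edgeR adjusted p = 1.00). Its ratio was -0.11 in replicate 1, 0.04 in replicate 2 and 0.04 in replicate 3. Reads of these rows cannot be told apart by sequence, so the p-value is no test of how the copies are used. The lower count of the first hairpin was thus seen in the table whose rows share reads and not in the mature table, and neither table measures the level of a single copy.

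**Figure D4:**
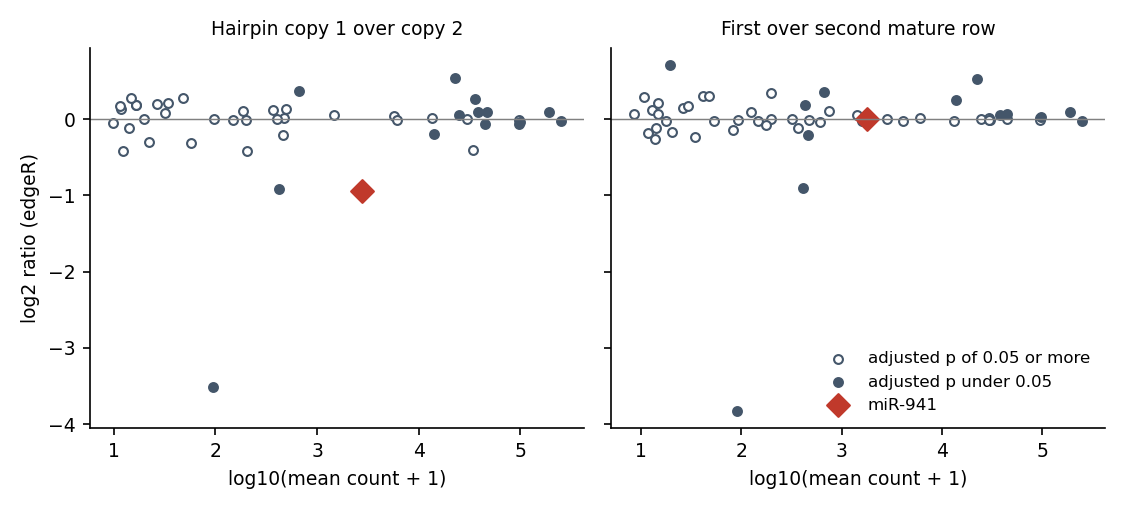
Fitted log2 ratio of the first to the second copy against log10(mean count + 1), for 47 pairs of numbered hairpins (left) and 55 mature names with several rows (right); filled points have an edgeR adjusted p under 0.05 and the red diamond is miR-941. The diamond lies at -0.94 among hairpins and at -0.0033 among mature rows.

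In these 3 libraries the level of miR-941 varied less than that of most names near it in level. Its coefficient of variation (CV, the SD over the mean) was 18.6% on the FPKM scale, where counting alone would give 1.19%. With a replicate left out, the CV of miR-941 ran from 12.9% to 26.1%. Among the 50 names nearest in level the CV ranged from 2.47% to 79.8% with a median of 29.2%, and 20 of the 50 were below miR-941. With counts scaled by the median of ratios, the CV was 7.36% against a median of 22.7%, and 3 of the 50 were below. On the deposited scale miR-941 was 1.21-fold higher in replicate 2 than in replicate 1, a log2 ratio of 0.27, where the median over 615 names with at least 10 counts in every library was 0.42. Replicate 3 was 1.45-fold above replicate 1, a log2 ratio of 0.54 against a median of 0.44. Replicate 3 was 1.20-fold above replicate 2, a log2 ratio of 0.26 against a median of 0.08. The median miRNA was thus also lower in replicate 1 than in the other libraries, and the order of the libraries for miR-941 depended on the scaling.

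The miRNAs whose counts per 1000000 followed miR-941 most closely over the 3 libraries were sought among 329 names with at least 100 counts in every library. Closeness was the Euclidean distance between log2 ratios to each name's own mean, and 3 libraries give no basis for a correlation. The nearest was miR-92b-3p, at a distance of 0.017, with 589, 702 and 842 per 1000000 against 501, 605 and 727 for miR-941. It was followed by miR-191-3p at 0.020, miR-222-3p, a regulator of the KIT receptor, at 0.035, let-7e-5p at 0.048 and miR-3928-3p at 0.067. The distances take no account of counting error, so the order of these names is a description only. miR-3928-3p, for example, had 8.35, 9.46 and 11.8 per 1000000 in replicates 1, 2 and 3.

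The other hairpins at the same end of chromosome 20 differed widely in their rows. GENCODE places 14 further miRNA genes within 5 Mb of the miR-941 copies, of which 8 had a row. The highest rows were hsa-mir-124-3, a copy of the neuronal miR-124, with 5626 ± 2919 FPKM and hsa-mir-4326 with 2413 ± 47.4 FPKM (SD, n = 3). hsa-mir-941-1 was below both means and the other miR-941 hairpins, which hold shared reads, lay between them. hsa-mir-1-1, a copy of the muscle miRNA miR-1, had 522 ± 25.96 FPKM, and its neighbour hsa-mir-133a-2 had 53.6 ± 25.6 FPKM (SD, n = 3). The remaining 4 were hsa-mir-6813 with 37.6 ± 10.3, hsa-mir-548ag-2 with 29.3 ± 15.7, hsa-mir-1914 with 15.4 ± 9.57 and hsa-mir-1257 with 10.4 ± 4.34 FPKM (SD, n = 3). hsa-mir-124-3, hsa-mir-1-1 and hsa-mir-133a-2 have other copies elsewhere with rows of their own, so, as for miR-941, their rows may hold an assigned share of common reads and give no level of the place on chromosome 20. hsa-mir-124-1, for example, had 2782, 5987 and 8505 counts in replicates 1, 2 and 3, against 2731, 5792 and 8338 for hsa-mir-124-3. The nearest was hsa-mir-1914, on the opposite strand 21526 bases beyond the last miR-941 copy, with 10, 23 and 9 counts in replicates 1, 2 and 3.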

How the data were processed

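Small RNA libraries (NEB library preparation, Illumina sequencing) of 3 EV MV4-11 samples were used. The authors deposited whole-number counts, not normalized, per mature strand and per hairpin of miRBase release 21. The deposited FPKM were computed by the authors from these counts, the feature length and a library total. The processing notes name Novoalign 2.08.03, with hg19 and mm10. How reads with several alignments were placed is not given in the sources used here. Every row reached 10 counts in at least 1 library. No molecular identifiers are described, PCR copies were therefore counted as reads, and intervals cover counting error only.

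Rows of a mature name were summed. Shares were given with Wilson 95% intervals. The copy split was tested with edgeR 4.0.16 in R 4.3.3, with library totals recovered from the FPKM, the library as a block and p-values adjusted over all pairs, with limma 3.58.1 and DESeq2 1.42.0 as alternatives. The fits were tested on simulated data. With 3 libraries an exact sign-flip test cannot go below p = 0.25. The p-values measure the spread between these samples alone. Hairpins were folded with RNAfold 2.7.2, and host genes were taken from GENCODE release 29. All else was run in Python 3.11.15 (pandas 2.3.3, numpy 2.4.6, scipy 1.17.1), with figures from matplotlib 3.10.9. The miRNAs named beside the members were the 3 on either side in level, the 5 with the closest pattern, hairpins within 5 Mb, names with the same seed, and the 3 most even and 3 most uneven copy pairs. The members and lists were chosen with earlier results of these data known.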

Additional observations from a re-analysis of the deposited data

How the results depend on the processing

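Of 88 values recomputed under an alternative, 72 kept their call or stayed within the spread that applied (1 SD between libraries, or 1.5 times for counts of pairs and the CV). That count is no measure of robustness. With 3 libraries, leaving 1 out cannot move a mean level or share by 1 SD, so those values could not fail the rule. The calls of the ratio of the first 2 miR-941 hairpins are also among the 72, though that ratio carries no test. Treating the mature rows as 4 separate miRNAs lowered the level, by construction, to 6943 FPKM for their mean and 6989 for the highest row, and the mean of rows ranked 148. With mature rows in place of hairpin rows the shares of the 4 copies were 25.1%, 25.2%, 24.8% and 25.0%. The log2 ratio of the first 2 copies was then -0.0033 and was not called, and it was 0.0082, 0.017 and 0.0091 for hairpin copies 2 and 3, 2 and 4, and 3 and 4, comparisons chosen after the data were seen, as were those of copies 1 and 3 and 1 and 4 and the RefSeq length. The CV was 7.36% with median-of-ratios scaling and 8.32% with TMM factors, and on the FPKM scale it ran from 12.9% to 26.1% with a replicate left out. Pairs called for an uneven split were 8 with limma at either pseudocount and 6 with DESeq2, against 15 with edgeR. The cause was not tested. The ratio of the first 2 miR-941 hairpins stayed between -0.95 and -0.94 with a replicate left out. This is no sign of stability, since the second hairpin holds nearly all reads of the first. The summed level ran from 25134 to 30284 FPKM with a replicate left out. Depth did not limit these rows, whose lowest count in a library was 1510, whereas identical copies limit what a row can say of its own hairpin.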
